A study of Ichthyophis bannanicus with 29 samples.

Results

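Kidney was set against skin in *Ichthyophis bannanicus*, a caecilian. Caecilians are amphibians without limbs that live mostly in soil. The comparison used the 3 kidney and 3 skin libraries of a series of 29 libraries from 10 tissues. Ovary had 2 libraries and each other tissue had 3. The values were transcripts per 1000000 (TPM), so that each library has the same sum, for 53113 assembled genes. A gene was tested where it reached 1 TPM or more in at least 2 of the 6 libraries, and 39482 genes did so, while 13631 did not. The groups were kidney and skin, described by tissue alone. The labels used here give no age, sex, strain, treatment or body region, and do not state if separate animals were sampled. The p-values therefore measure the spread between these samples alone, which may be technical.

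Kidney and skin are the organs through which an amphibian chiefly exchanges water and salt with its surroundings. The kidney filters the blood and recovers salts and nutrients along its tubules before the urine leaves. Amphibian skin takes up water and ions, serves in gas exchange, and carries mucous and poison glands. The deposited table pairs no gene names with its assembly IDs, so marker genes could not be read, genes of transport or barrier pathways could not be listed, and no function is given to any gene. IDs are printed for 2 genes in each direction.

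The libraries were alike within a tissue. Over the tested genes, the Pearson r of log2(TPM + 1) between kidney libraries was 0.811, 0.803 and 0.901, with the lower values in the pairs that hold kidney replicate 1. Between skin libraries it was 0.896 to 0.911, and between a kidney and a skin library 0.507 to 0.537. Each of the 6 libraries had its nearest library of all 29 in its own tissue. Kidney libraries had 35584 to 35795 genes at 1 TPM or more, against 29613 to 30326 in skin libraries. Sequencing depth is unknown, because TPM does not keep it.

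More genes were higher than lower in kidney. In limma on log2(TPM + 1), calls needed a p under 0.05 after Benjamini-Hochberg adjustment over all tested genes, and a log2 difference, kidney minus skin, of 1 or more in size. Of the tested genes, 9572 (24.2%) were higher in kidney and 2698 (6.83%) were lower, so 78.0% of the 12270 calls were higher. Without kidney replicate 1 the numbers were 9570 higher (25% of the 38311 genes then tested) and 2624 lower (6.85%). Of the genes higher with all 6 libraries, 8326 (87.0%) were also called higher without that library, and 2322 (86.1%) of the lower genes were also called lower. No gene was called in opposite directions by the fits with and without it.

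The split between higher and lower calls moved with the scaling of the libraries. TPM is a share of a library, and the median log2 difference of all tested genes was 0.58 as deposited. Rescaling the 6 libraries by the median of their ratios moved that median by -0.42, to 0.16. The scaling factor averaged 1.22 ± 0.08 in kidney and 0.83 ± 0.08 in skin (SD, n = 3 each). After rescaling, 6078 genes (15.4%) were higher and 4222 (10.7%) were lower, and the share of higher calls was 59.0%. All 6078 of these higher genes were among those called higher in TPM as deposited, and all 2698 lower genes were called lower under both scalings. No gene called under both scalings was called in opposite directions. In bulk tissue, a difference in the share of cells of a type and a difference in RNA per cell cannot be told apart.

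**Figure D1:**
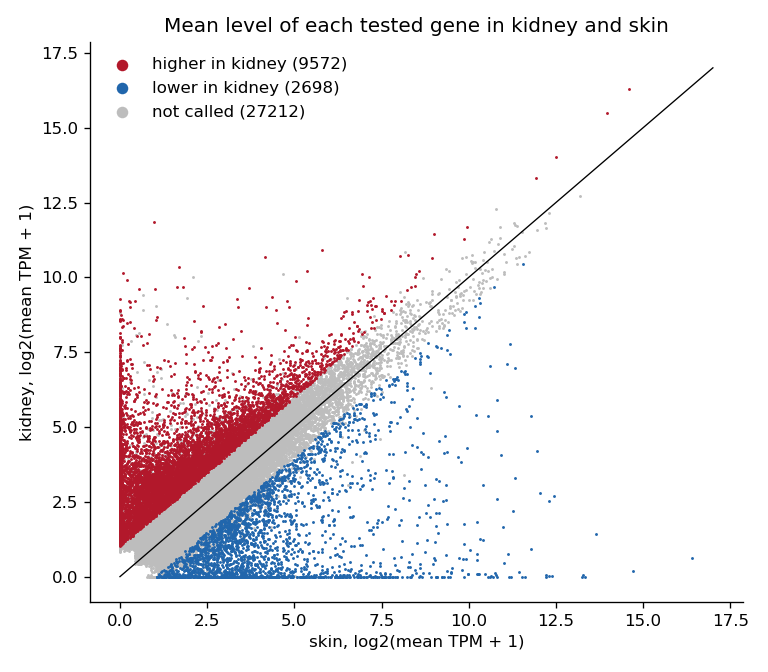
Mean level of each tested gene in kidney (vertical axis) and skin (horizontal axis), both as log2(mean TPM + 1), with 1 point per gene and the line of equality. The 9572 genes called higher in kidney lie mostly at moderate levels, while the 2698 lower genes reach further along the skin axis.

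Differences were often large, and the largest ones were on the skin side. The median log2 difference was 1.93 among higher genes and -2.26 among lower genes, beside 0.58 over all tested genes. A difference of 16-fold or more on the log2(TPM + 1) scale was found for 1001 (10.5%) of the higher genes and 492 (18.2%) of the lower genes. At 256-fold or more there were 25 higher and 80 lower genes, and at 1024-fold or more there were 2 higher and 28 lower genes. The kidney libraries lay wholly above the skin libraries for 9560 of the 9572 higher genes, and wholly below them for 2694 of the 2698 lower genes. The calls on the same libraries nearly ensure this, so it is a description. Over all tested genes, called or not, the kidney libraries lay wholly above for 15992 (40.5%) and wholly below for 4539 (11.5%). After rescaling the numbers were 10544 and 7912. A single gene in 3 against 3 libraries cannot reach an exact permutation p under 0.1.

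The kidney gene with the largest difference was TRINITY_DN49458_c0_g1. It was at 3049, 5160 and 2911 TPM in the kidney libraries, against 2.88 TPM in skin replicate 1 and a listed 0 in the other skin libraries. The tissues did not overlap, as the choice of the gene required, and the skin value came from a single library. Kidney minus skin, this came to 11.15 ± 0.56 on the log2 scale (SE), with an adjusted p of 2.94e-05 in limma. Among the 23 libraries of other tissues it reached 209 TPM in testis replicate 1 and at most 4.88 TPM elsewhere, in ovary replicate 3.

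TRINITY_DN8232_c0_g1 had the largest difference toward kidney among genes at 5 TPM or more in each of the 6 libraries. It was at 1607, 1757 and 1590 TPM in kidney, against 13.7, 9.96 and 26.7 TPM in skin. Kidney libraries were close to each other, at 1651 ± 91.8 TPM, while skin averaged 16.8 ± 8.77 TPM (SD, n = 3 each). The difference was 6.65 ± 0.33 (log2, SE), with an adjusted p of 2.76e-05 in limma. In the other tissues it ranged between 0.532 and 99.1 TPM with a median of 10.5 TPM over 23 libraries, so skin lay within that range and kidney far above it.

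TRINITY_DN29415_c0_g2 was the gene with the largest difference toward skin. It was at 1.30, 0.274 and 0.0741 TPM in kidney, against 53388, 69430 and 138847 TPM in skin. The difference, kidney minus skin, was -15.74 ± 0.42 (log2, SE) with an adjusted p of 5.49e-06 in limma, and the gene alone held 8.72% of skin TPM on average. Skin replicate 3 held more of it than either other skin library. Blood held 67.0 to 106 TPM and spleen 130 to 898 TPM, while the libraries of the 6 other tissues held at most 3.59 TPM.

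TRINITY_DN49123_c1_g1 had the largest difference toward skin among genes at 5 TPM or more in each of the 6 libraries. Kidney held 6.61, 28.5 and 16.7 TPM of it, against 3229, 5796 and 2896 TPM in skin. Kidney minus skin, limma gave -7.90 ± 0.51 (log2, SE) with an adjusted p of 7.48e-05. Spleen held 150 to 413 TPM, and stomach ranged from 3.21 to 795 TPM over its 3 libraries, so no other library reached the skin level. All 4 named genes were called in the same direction under each of the 13 alternatives run for them, with adjusted p in limma up to 0.00133. They were chosen as called, non-overlapping genes with the largest differences in the same libraries, so this describes them and is no support.

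**Figure D2:**
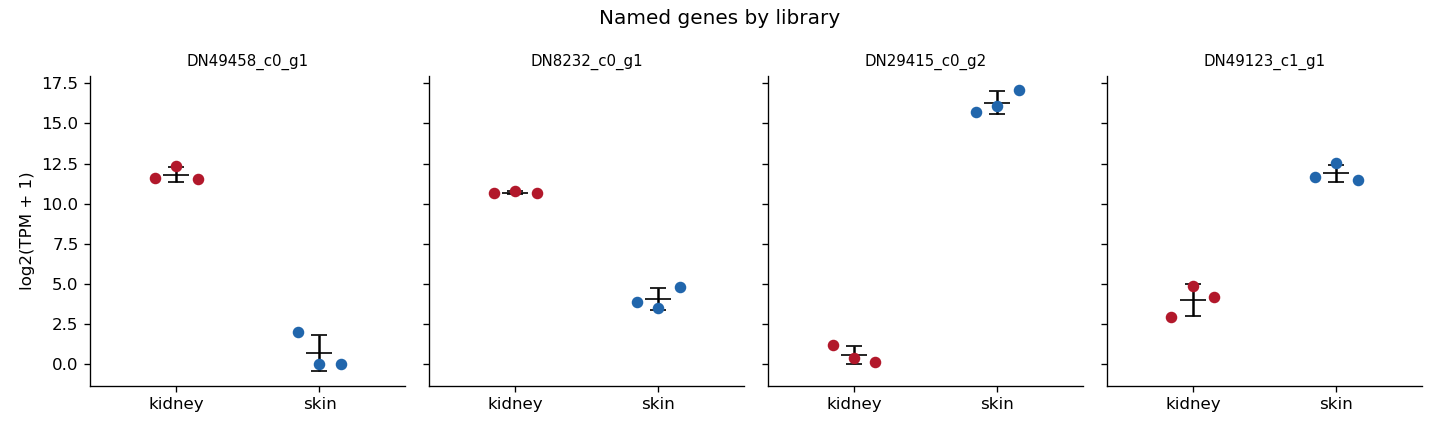
Level of the 4 named genes as log2(TPM + 1), with 1 point per library in kidney (left of each panel) and skin (right). Bars are the mean and SD of 3 libraries on this scale, and IDs are shown without their common prefix. No panel has overlapping tissues, as the genes were chosen so, and the gene DN29415_c0_g2 spans the widest gap.

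A set of genes was near absent from the other organ. There were 1795 genes (4.55% of those tested) that reached 5 TPM in every kidney library and stayed under 0.5 TPM in every skin library. The reverse held for 503 genes (1.27%). All 2298 of these genes were called, as their definition nearly ensures, so the calls on them are a description. Rescaling gave 1487 and 570 such genes, and without kidney replicate 1, where fewer libraries have to meet the limits, there were 2122 and 554. The kidney genes took 4.36%, 6.10% and 5.39% of TPM in the kidney libraries and on average 0.0032% ± 0.0007 in skin (SD, n = 3). The fewer skin genes took on average 0.0026% ± 0.0001 of TPM in kidney (SD, n = 3), against 14.5%, 15.5% and 13.0% in the skin libraries. The skin genes thus held a larger part of their tissue's TPM than the kidney genes did, in every library.

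In TPM as deposited, higher genes in kidney and lower genes in skin took similar parts of TPM, although their numbers differed 3.55-fold. These parts were not computed for the calls after rescaling, which were 6078 higher and 4222 lower. Every library has the same sum of TPM, so a part gained by some genes is lost by others. The similar parts follow in part from this and are a description. The 9572 higher genes took 39.0%, 45.0% and 44.8% of TPM in the kidney libraries, against 10.6%, 9.41% and 10.4% in skin. The 2698 lower genes took 1.99%, 2.42% and 2.44% of TPM in kidney, against 39.4%, 42.5% and 43.8% in skin. Kidney replicate 1 had the lowest share of both sets among the kidney libraries. Of the lower genes, 63 (2.34%) averaged 1000 TPM or more in skin, whereas 21 (0.22%) of the higher genes did so in kidney. A total of 73 genes held 50% of the kidney TPM of the higher genes, and 19 genes held 50% of the skin TPM of the lower genes.

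Level and direction were related. Genes were put in classes by their mean over the 6 libraries. In the class from 5 to 20 TPM, 4053 of 14474 genes (28.0%) were higher in kidney and 1004 (6.94%) were lower. In the class from 100 to 1000 TPM the numbers were nearly equal, with 219 of 1019 (21.5%) higher and 216 (21.2%) lower. At 1000 TPM or more, 10 of 99 genes (10.1%) were higher in kidney and 31 (31.3%) were lower. After rescaling, the shares at 5 to 20 TPM were 17.2% higher and 11.3% lower, and at 1000 TPM or more 2.02% higher and 53.5% lower. Higher calls thus outnumbered lower ones at 5 to 20 TPM and lower calls outnumbered higher ones at 1000 TPM or more under both scalings. The order in the class from 100 to 1000 TPM depended on it, as 12.9% were higher and 31.9% lower after rescaling.

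Genes present at a measurable level in both organs also depended on the scaling. Among the 9924 genes that reached 5 TPM in each of the 6 libraries, 1563 (15.7%) were higher in kidney and 445 (4.48%) were lower. After rescaling the larger side turned, with 494 higher and 1154 lower. The median log2 difference of these genes was 0.37 as deposited and -0.15 after rescaling.

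**Figure D3:**
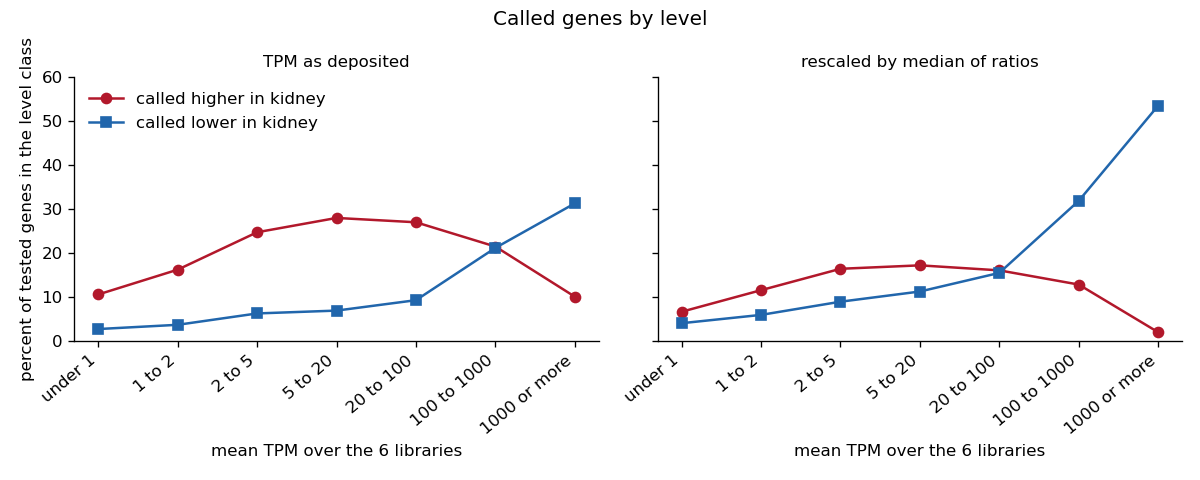
Percent of tested genes called higher (circles) or lower (squares) in kidney, by class of mean TPM over the 6 libraries, in TPM as deposited (left) and after rescaling (right). The lines cross near 100 to 1000 TPM as deposited and at 20 to 100 TPM after rescaling.

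The most abundant genes were partly shared. Of the 10 genes with the highest mean in each tissue, 4 were in both lists, and of the 100 highest, 50 were in both. The 100 kidney genes took 31.4% ± 2.90 of TPM in kidney and 18.4% ± 1.13 in skin (SD, n = 3 each), and 30 of them were called higher and 2 lower in kidney. The 100 skin genes took 25.1% ± 1.94 in kidney and 42.5% ± 4.90 in skin (SD, n = 3 each), and 4 of them were called higher and 50 lower in kidney. These lists were chosen on the same libraries, beside a share of 24.2% higher and 6.83% lower over all tested genes, so nothing is read from the counts. The most abundant gene of kidney, singled out after its values were seen, was at 77211, 86018 and 79453 TPM in kidney, against 26095, 21762 and 26413 TPM in skin. Its log2 difference was 1.71 ± 0.09, and 1.16 ± 0.16 after rescaling (SE), and it was called under both scalings in limma.

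For some genes the interval lay near equality in TPM as deposited. For 5189 genes (13.1%) the 95% interval of the log2 difference in limma lay inside -1 to 1, that is within 2-fold. They took 23.3% ± 0.64 of TPM in kidney and 23.3% ± 0.86 in skin (SD, n = 3 each). Most of them were broadly expressed, as 3946 (76.0%) averaged at least 1 TPM in all 10 tissues, against 16947 (42.9%) of all tested genes. The choice in part ensures this, as kidney and skin are among the 10 tissues. It also favoured abundant genes, with 38.4% of those at a mean of 1000 TPM or more and 4.16% of those under 1 TPM. Kidney or skin was the tissue of their highest mean for 135 and 152 genes, while testis was for 1404 and ovary for 1021. A choice near equality disfavours a highest mean in kidney or skin, so these counts are descriptions. The remaining 22023 genes (55.8%) were not called, and their interval reached beyond 2-fold. The intervals were not adjusted for the number of genes, and after rescaling 6595 genes had one within 2-fold. The number within 2-fold depended on single libraries, as it was 3430 when kidney replicate 2 was left out, 3144 when skin replicate 1 was and 2778 when skin replicate 2 was, and with all 29 libraries in the fit it was 3338.

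Kidney replicate 1 carried genes of ovary. Genes restricted to another tissue were taken as those at 5 TPM or more in each of its libraries and under 0.5 TPM in every library of the 7 others. With 2 libraries, ovary meets the lower limit more easily than a tissue with 3, and its means rest on fewer libraries. Kidney and skin libraries did not enter the choice directly. Except for the testis genes, the limit of 0.5 TPM also held in testis replicate 1. That library was at 1 TPM or more for 80.6% of the genes higher in kidney, against 65.0% and 57.2% in testis replicates 2 and 3. The limit can thus leave out genes present in kidney. Of 125 genes restricted to ovary, 98 (78.4%) were at 1 TPM or more in kidney replicate 1, 0 in kidney replicate 2 and 3 in kidney replicate 3, against 4, 5 and 2 in the skin libraries. Their summed level was 4319, 5.26 and 13.9 TPM in the kidney libraries, against 15.4, 18.0 and 9.14 TPM in skin. In the median, kidney replicate 1 held 34.9% of the mean that these genes had in ovary. Kidney replicate 1 was 4-fold or more above both other kidney libraries for 1195 tested genes, and for 961 of these (80.4%) ovary had the highest mean of the 9 other tissues. Genes 4-fold or more above both others numbered 215 and 251 in the other kidney libraries and 251 to 324 in the skin libraries. For these genes the most frequent tissue of the highest mean was lung or testis in kidney, and heart or testis in skin.

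Few of the ovary genes were tested. Of the 125 ovary genes, 6 passed the filter, and 0 were called in either direction at the limma threshold. Of the 1195 tested genes that stood out in kidney replicate 1, 43 were called higher in kidney, beside 24.2% over all tested genes. A gene high in a single library has a large spread by its choice, so nothing is read from that count. Without that library, 3 of the ovary genes were tested and 1 was called lower.

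Skin carried genes that were otherwise restricted to heart or lung, in all of its libraries. Of 87 heart genes, 4, 5 and 6 were at 1 TPM or more in the kidney libraries, against 39, 35 and 29 in the skin libraries. Their summed level was 14.2, 15.5 and 20.1 TPM in kidney, against 335, 181 and 108 TPM in skin. In each skin library the sum was over 5 times that of any kidney library, and skin replicate 1 held the most. Of these 87 genes, 27 were at 1 TPM or more in all 3 skin libraries and 1 in all 3 kidney libraries. In the comparison 38 of them were tested, 2 were called higher and 29 lower in kidney, beside 24.2% higher and 6.83% lower over all tested genes. Of 16 lung genes, 0 were at 1 TPM or more in any kidney library, against 5, 6 and 5 in the skin libraries, where their sum was 114, 122 and 120 TPM. The 5 lung genes that passed the filter were called lower in kidney, beside the same 6.83% over all tested genes. A gene can pass the filter through skin alone, so these counts describe the genes and are no support for a direction, and the source of the RNA was not tested. The heart and lung lists also required under 0.5 TPM in testis replicate 1, which can lower their counts in kidney.

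Kidney in turn held genes otherwise restricted to liver. Of 127 liver genes, 18, 27 and 22 were at 1 TPM or more in the kidney libraries, against 2, 1 and 1 in the skin libraries. Their summed level was 93.1, 127 and 158 TPM in kidney, against 10.01, 8.88 and 3.90 TPM in skin, without overlap. Of the 23 that passed the filter, 18 were called higher and 1 lower in kidney, beside 24.2% and 6.83% over all tested genes. Liver genes can pass the filter through kidney alone, so this count is likewise a description. Of 44 stomach genes, 2, 2 and 1 were at 1 TPM or more in the kidney libraries, against 3, 6 and 4 in the skin libraries. The 6 in skin replicate 2 were 13.6% of the stomach genes, beside 14.2% for liver genes in kidney replicate 1. Of 130 testis genes, 6, 4 and 6 were at 1 TPM or more in the kidney libraries, against 3, 3 and 3 in the skin libraries. Blood and spleen had 1 and 6 restricted genes and are not read further.

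**Figure D4:**
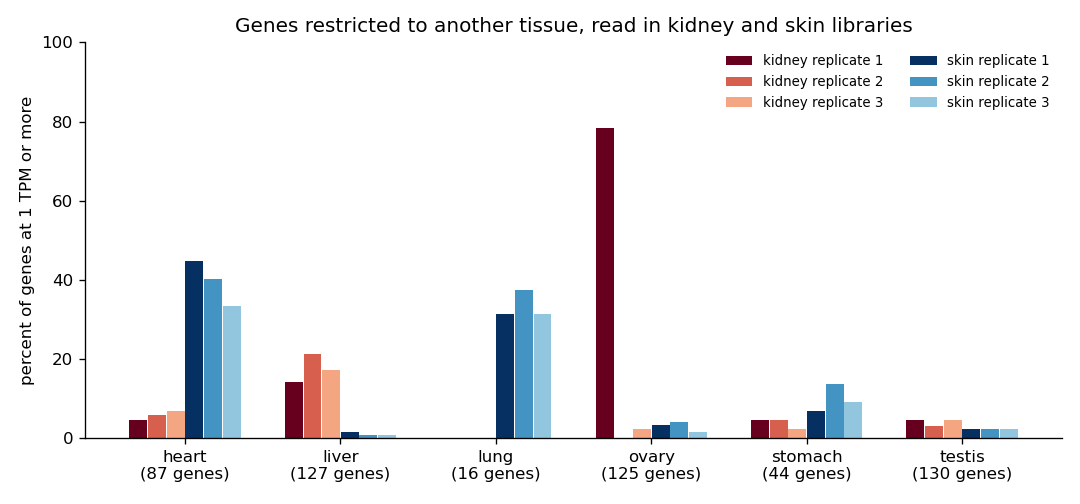
Percent of the genes restricted to each of 6 other tissues that were at 1 TPM or more, with 1 bar per kidney library (reds, left) and skin library (blues, right). Ovary genes stand out in kidney replicate 1 at 78.4%, heart and lung genes in every skin library, and liver genes in every kidney library.

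The called genes were then read in the 23 libraries of the 8 other tissues, which the calls did not use. Of the 9572 genes higher in kidney, kidney had the highest mean of all 10 tissues for 4541 (47.4%), testis for 1697 (17.7%), ovary for 957 (9.998%), heart for 683 (7.14%) and liver for 668 (6.98%). Of the 2698 lower genes, skin had the highest mean for 1498 (55.5%), heart for 258 (9.56%), lung for 233 (8.64%) and stomach for 203 (7.52%). The choice of these genes favours kidney or skin, and no share over all tested genes stands beside them, so they are descriptions. The testis mean includes testis replicate 1, and the number of genes highest in testis was not computed without it. Among the 5189 genes with an interval within 2-fold, testis had the highest mean for 27.1%, ovary for 19.7%, skin for 2.93% and kidney for 2.60%. The choice of this set disfavours kidney and skin, so its shares are descriptions too. An average of at least 1 TPM in all 10 tissues was found for 3010 (31.4%) of the higher genes and 559 (20.7%) of the lower genes, against 42.9% of all tested genes. Kidney and skin are among the 10 tissues, so the choice of the called genes in part ensures the lower shares. A mean under 1 TPM in all 8 other tissues was found for 1887 (19.7%) of the higher genes and 412 (15.3%) of the lower genes. The share was 6.53% over all tested genes. A tested gene low in those 8 tissues passed the filter through kidney or skin, and the calls favour genes of 1 organ. These shares are thus descriptions too, and were not computed without testis replicate 1.

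Tissues differed in which side they resembled. A tissue was counted on the side of the higher organ where its log2(mean TPM + 1) lay above the midpoint of kidney and skin. For genes higher in kidney, testis lay above the midpoint for 51.4%, heart for 41.2%, ovary for 33.5%, liver for 33.0%, lung for 22.4%, blood for 16.7%, stomach for 13.9% and spleen for 13.0%. For genes lower in kidney, lung lay above it for 30.1%, heart for 23.4%, testis for 22.4%, stomach for 22.2%, spleen for 18.5%, blood for 15.9%, ovary for 15.2% and liver for 11.0%. In TPM as deposited, heart, liver, ovary and testis thus lay above the midpoint more often for the kidney genes than for the skin genes. Lung, stomach and spleen did so more often for the skin genes. Blood was close, at 16.7% for the kidney genes and 15.9% for the skin genes. Testis replicate 1, the library with the highest level of TRINITY_DN49458_c0_g1 outside kidney, lay above it for 59.0% of the higher genes, testis replicate 2 for 50.6% and testis replicate 3 for 34.2%. The mean of testis without replicate 1 lay above it for 46.7% of them. These shares are descriptions in TPM, and their differences were not tested. They were not computed for the calls after rescaling, and no share over all tested genes stands beside them. Kidney replicate 1, which carried ovary genes, was among the libraries that gave the calls and the midpoint. No other tissue lay above the midpoint for 2704 (28.2%) of the higher genes and 903 (33.5%) of the lower genes.

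**Figure D5:**
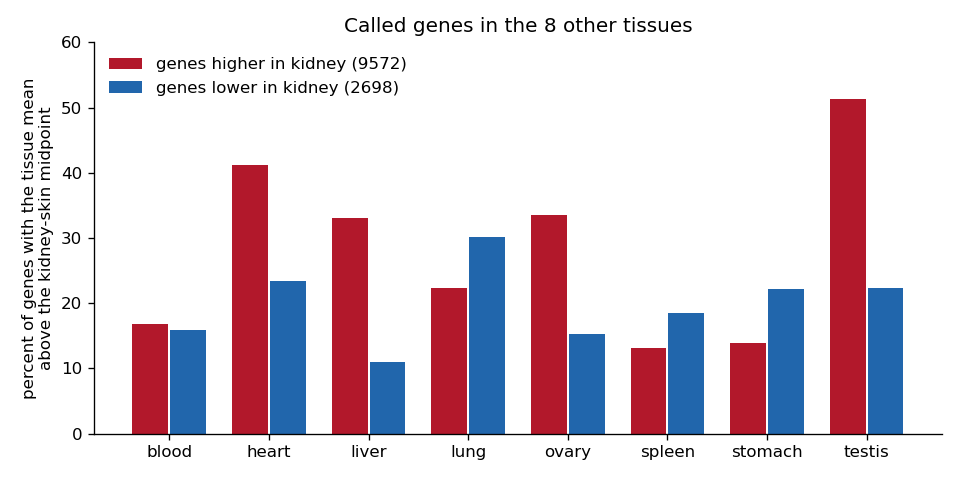
Percent of the 9572 genes higher in kidney (left bar) and of the 2698 genes lower in kidney (right bar) for which the mean of another tissue lay above the midpoint of kidney and skin on the log2(TPM + 1) scale. Testis has the highest share for the kidney genes at 51.4% (46.7% without testis replicate 1) and lung for the skin genes at 30.1%.

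The genes near absent from the other organ were more restricted, which their choice in part ensures. Of the 1795 kidney genes under 0.5 TPM in skin, kidney had the highest mean of the 10 tissues for 1677 (93.4%), liver for 63 (3.51%) and testis for 31 (1.73%). Of the 503 skin genes under 0.5 TPM in kidney, skin had the highest mean for 430 (85.5%), spleen for 24 (4.77%), heart for 20 (3.98%) and lung for 11 (2.19%). A mean under 1 TPM in all 8 other tissues was found for 1195 (66.6%) of the kidney genes and 240 (47.7%) of the skin genes. These numbers use the testis mean with testis replicate 1 and were not computed without it. In testis, 28.2% of the kidney genes averaged 1 TPM or more, but 7.91% did so without testis replicate 1. The next highest share was 12.3% in liver. Of the skin genes, 24.5% averaged 1 TPM or more in spleen, 19.9% in lung and 18.3% in blood, against 5.17% in ovary.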

How the data were processed

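Libraries of poly-T selected messenger RNA were prepared with a NEBNext Ultra kit, per the labels' protocols. The authors deposited TPM for 29 libraries, per the file headers. The row names have the form of Trinity assembly genes, which can be fragments or merged copies, so counts are of assembled sequences and paralogs are uncertain. The aligner, quantifier and any filter were not given in the sources used here. Read counts were not used here, so no count test was run.

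Tissue and replicate number came from the labels. log2(TPM + 1) of the 6 libraries was fitted in limma 3.58.1 (R 4.3.3) with an intensity trend, after the filter of 1 TPM in at least 2 libraries. Other steps used pandas 2.3.3 and numpy 2.4.6 in Python 3.11.15, with matplotlib 3.10.9 for plots. The fit was also run on simulated data with known changes, and no result is drawn from that run here. No 2 of the 6 libraries had an equal value above 0 in any gene, so each was counted once.

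The comparison, the restricted genes and the reading of kidney replicate 1 were chosen with earlier results of these data known. Per direction, the genes named are the called, non-overlapping gene with the largest log2 difference, and the same among genes at 5 TPM or more in all 6 libraries. Alternatives were a pseudocount of 0.1, no filter, a filter of 3 libraries, median-of-ratios scaling, a replicate block, all 29 libraries in the fit, no trend, a test against a log2 difference of 1 (limma treat) and each library left out. Counts by level and for genes in all 6 libraries after rescaling, and testis without replicate 1, were added after seeing the data.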

Additional observations from a re-analysis of the deposited data

How the results depend on the processing

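Depth is unknown, so low values cannot be given a counting error. The test against a log2 difference of 1 called 3725 genes higher and 1285 lower, 74.4% of them higher. Median-of-ratios scaling gave 6078 higher and 4222 lower (59.0% higher), 10544 genes wholly above and 7912 wholly below, and among genes at 5 TPM or more in all 6 libraries 494 higher and 1154 lower. With all 29 libraries in the fit, 3338 genes lay within 2-fold. With a lower limit of 1 TPM for restricted genes, the shares at 1 TPM or more were 61.0% for ovary genes in kidney replicate 1, 30.1% for heart genes and 24.2% for lung genes in skin on average, beside 78.4%, 39.5% and 33.3%. The causes were not tested. Leaving out each of the 6 libraries in turn gave 7558 to 9570 higher, 2148 to 2624 lower, 74.5% to 78.5% of calls higher, and 2778 to 7033 genes within 2-fold.

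With the replicate number as a block, 8973 genes were higher and 2543 lower. The labels do not say that a number marks an animal, and the deviations of same-numbered kidney and skin libraries correlated at 0.02, 0.01 and 0.04. Each kidney library correlated best with the skin library of its number, while pairs of unlike number correlated at -0.026 to 0.0029. Deviations of the libraries of a tissue cancel each other, so these values are not independent and nothing is read from the match. Whether a number marks an animal was not tested. Of 98 values of the main results under an alternative, 19 moved past the limit set for them, given above singly or within a range, and 79 did not, those with the block among them. The 54 values of the named genes and of testis without replicate 1 did not. For counts the limit was a wide fold range about the main value, so counts that did not pass it can still differ from it. Without skin replicate 2, 7558 higher genes stood against 9572, and without kidney replicate 1, 7033 genes within 2-fold stood against 5189.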

Other observations

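Assembled genes of 1 component, which share the ID up to its gene part, can be copies, splice forms or fragments of related sequence. Of 718 components with 2 or more called genes, 504 (70.2%) had all of them higher in kidney, 94 (13.1%) had all lower, and 120 (16.7%) had calls in both directions. These 120 held 137 higher and 125 lower genes. In 456 components exactly 2 genes were tested and both were called, with both higher in 319, both lower in 73 and opposite calls in 64 (14.0%). A gene near absent from skin and another near absent from kidney stood in the same component in 3 cases. Of all calls, 78.0% were higher in TPM as deposited and 59.0% after rescaling, for which components were not counted. Components with all genes higher partly follow from that split, so nothing is read from their number. No sequence was read here, and no test was applied.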
